A study of Austrofundulus limnaeus and Nothobranchius furzeri and Aphyosemion australe with 30 samples.

Results

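Embryos of the African turquoise killifish (Nothobranchius furzeri) can pause in diapause, a reversible arrest in which they wait out the months when their ponds hold no water. The comparison described here set chromatin accessibility after 1 month of diapause (Dia 1m) against accessibility before diapause (Pre-Dia). It compares 5 of the 30 libraries of the series, 3 from Dia 1m and 2 from Pre-Dia. Its members are all 60359 consensus peaks of this species, the regions that the authors merged from the peaks of their libraries. After 1 month of diapause 2850 peaks were more accessible and 2146 were less accessible than in Pre-Dia, by a median of 2.85-fold and 2.90-fold. The threshold acts on these same differences and favours large ones. The spread between libraries was estimated from all 9 libraries of this species. A fit of the 5 libraries alone called 979 higher and 606 lower peaks. Most changed regions stood alone, yet neighbours shared a direction more often than regions in general. The next region along the genome had opened after 18.1% of opening regions, against 4.78% after any region. It had closed after 10.5% of closing regions, against 3.59% after any region. At 6 days of diapause (Dia 6d) the median opening region had covered 88.8% of its log2 change and the median closing region 70.5%. In developing embryos past the onset of heartbeat these shares were 49.6% and 24.2%. All of these shares use the Pre-Dia and Dia 1m libraries on which the regions were picked, so errors in both groups enter them. Picking on Dia 1m enlarges the full change, which favours smaller shares. The shares were not tested.

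The assay was ATAC-seq: the Tn5 transposase cuts DNA that nucleosomes leave exposed and attaches sequencing adapters at the cuts. Promoters, enhancers and other regulatory elements in use are open to the enzyme, and DNA wrapped in nucleosomes is mostly closed to it. In the form of diapause sampled here, the embryo arrests after the body axis has formed, with a slowed or nearly stopped heartbeat and with little growth or cell division. Arrested embryos can resume development later.

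All embryos were wild type and untreated, and each library was made from nuclei of a pool of dissected whole embryos. Pre-Dia embryos were at mid-somitogenesis and carried a Kupffer's vesicle, a transient organ that sets left and right. The parents were young and spawning for the first time, and such clutches seldom arrest, so that Pre-Dia largely stands for embryos on the way to direct development. Dia 1m embryos had been arrested for 1 month with a heartbeat below the rate of developing embryos, watched to have all but stopped. The groups therefore differ in the age, stage and expected route of the embryo as well as in diapause. They may also differ in the age of the parents and in the clutch. All of these cannot be told apart between these groups. The 2 libraries of Dia 6d and the 2 of developing embryos past the onset of heartbeat (Dev) are given beside the main comparison. In bulk nuclei, a change in the share of cells with an open region and a change in openness per cell cannot be told apart, and the study's methods state that some libraries were over-transposed without naming them here. The peaks carry no gene names in the deposited table, so that regions are given by their number and position in the assembly Nfu_20140520, and the tissue was not checked against marker genes.

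Values are reads per peak divided by a factor per library, called normalized reads. The libraries held 3.05 and 2.26 megareads (M) in peaks in Pre-Dia and 3.45, 3.59 and 3.94 M in Dia 1m, with medians of 30 and 23 reads per peak in Pre-Dia and of 31, 29 and 37 in Dia 1m. Dia 1m held more reads than either Pre-Dia library (3.66 ± 0.25 and 2.65 ± 0.56 M, SD, n = 3 and n = 2; two-sided exact permutation p = 0.1, the smallest that 10 assignments allow, and 0.6 after adjustment over 6 such measures). The Dia 1m libraries stood apart from each other. Replicate 2 had the widest spread of log2 values (SD 1.56) and 14.2% of its peaks under 10 reads, whereas replicate 3 had the narrowest spread (SD 1.18) and held 5.10% of its signal in its 10 strongest peaks. Across peaks, Pearson correlations among the Dia 1m libraries ranged from 0.695 to 0.852, and the Pre-Dia libraries had a correlation of 0.837. Pairs of a Dia 1m and a Pre-Dia library ranged from 0.676 to 0.728. Pairs across stages that included a Dia 6d or Dev library ranged from 0.632 to 0.872. The highest of these joined Dia 1m replicate 2 with Dia 6d replicate 1. No label says whether libraries of a group came from separate clutches, so p-values measure the spread between these libraries, which may be technical.

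Of the 60359 peaks, 4996 passed the threshold (limma, Benjamini-Hochberg adjusted p under 0.05), which is 8.28% of all peaks, 4.72% higher and 3.56% lower in Dia 1m. At an unadjusted p under 0.05 there were 14352. Peaks that rose did so by 0.94 to 3.72 on the log2 scale, and the middle 50% lay between 1.28 and 1.83. Among peaks that fell, the absolute log2 difference ranged from 0.93 to 3.86, with the middle 50% between 1.31 and 1.83. A change of at least 4-fold, a log2 difference of 2, was seen at 476 higher peaks (16.7%) and at 346 lower peaks (16.1%). Opening and closing covered much the same range of sizes among the peaks that passed. The threshold acts on these same differences, so it bounds both ranges from below and favours large sizes.

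The libraries themselves separated at nearly all of these peaks. The peaks were picked on the difference between the same Dia 1m and Pre-Dia libraries, which favours separation, so this is a description. All 3 Dia 1m libraries lay above both Pre-Dia libraries at 2793 of the 2850 higher peaks and below both at 2143 of the 2146 lower ones. Over all consensus peaks, the same separation was seen upward in 17.1% and downward in 18.9%, so that many peaks with separated libraries did not pass the test. The median higher peak held 30.9 and 30.03 normalized reads in Pre-Dia and 88.1, 118 and 67.8 in Dia 1m. The median lower peak held 74.0 and 76.6 in Pre-Dia and 23.1, 25.5 and 27.1 in Dia 1m. The ranges of these medians did not overlap in either direction, which the picking also favours. The Dia 1m libraries kept a steadier order at the peaks that opened than at those that closed. How far they differed at single peaks was not compared between the directions. Dia 1m replicate 2 was the highest of the 3 at 82.0% of the higher peaks and replicate 3 the lowest at 71.2%. At the lower peaks no replicate was the lowest at more than 37.4%.

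**Figure D1:**
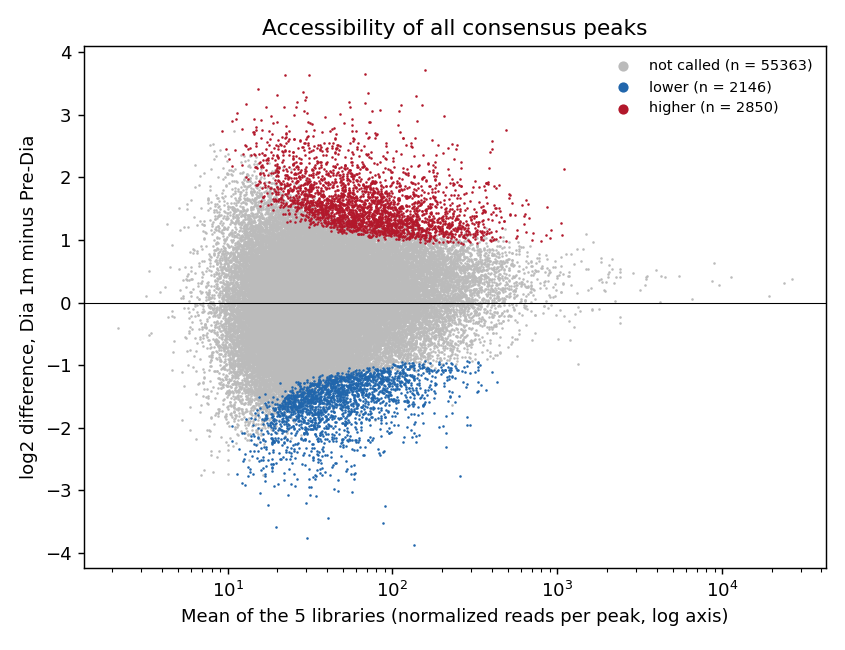
Log2 difference of each consensus peak between Dia 1m and Pre-Dia (limma, vertical axis) against its mean over the 5 libraries in normalized reads (logarithmic horizontal axis). The 2850 peaks that passed upward are red, the 2146 that passed downward are blue and the 55363 others are grey. The 3 strongest peaks, at the right, are grey, with differences of 0.38, 0.30 and 0.10.

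The count of called peaks depended on which libraries entered. Leaving out Pre-Dia replicate 2 gave 719 (522 higher, 197 lower), and leaving out Pre-Dia replicate 1 gave 1222 (927 and 295). The same step gave 1931 for Dia 1m replicate 1, 3292 for Dia 6d replicate 1 and 12519 for Dia 1m replicate 3 (7674 and 4845). Lower peaks outnumbered higher ones without Dia 1m replicate 2 (2798 higher, 3292 lower) and after quantile normalization (3203 higher, 3289 lower). No peak changed direction, which the separation of the libraries fixes at nearly all called peaks when 1 library is left out, so that this is no sign of stability.

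Very low counts in all libraries of a group were rare. In single libraries they were more frequent. At least 1 of the 5 libraries held a single read at 99 higher peaks, 53 lower peaks and 1160 of all peaks. Both Pre-Dia libraries held at most 3 reads at 30 of the 2850 higher peaks and at 111 of all 60359 peaks, and the lowest recorded value in the table is 1 read, so that 0 reads and 1 read cannot be told apart. All 3 Dia 1m libraries held at most 3 reads at 0 of the 2146 lower peaks and at 4 of all 60359 peaks, none of which passed the test. What read count marks a closed region was not measured.

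The 8 named peaks with the largest rise were taken from 2203 peaks that passed the test, had separated libraries and held a mean of at least 50 normalized reads in Dia 1m. Peak_1167, 385 bp at position 27058275 to 27058659 of NC_029649.1, held 21.0 and 15.0 normalized reads in the Pre-Dia libraries and 274, 302 and 180 in the Dia 1m libraries. It rose by 3.72 on the log2 scale (SE 0.37, limma adjusted p = 2.36e-06). Peak_1167 was low in Dev, with 6.4 and 8.7 normalized reads, and held 59.2 and 84.9 in Dia 6d. Its level thus differed between all 4 groups in its library ranges, and the step from Dia 6d to Dia 1m did not pass the test (log2 difference 1.78, limma adjusted p = 0.096).

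Peak_26958 (NC_029657.1, 7063762 to 7064445) followed another order. It held 9.9 and 4.5 normalized reads in Pre-Dia and 95.5, 181 and 52.4 in Dia 1m, a log2 difference of 3.66 (SE 0.42, limma adjusted p = 2.88e-05). Among the 8, this peak was the one at which Dev also passed the test against Pre-Dia, with 55.1 and 48.3 normalized reads (log2 difference 2.76, limma adjusted p = 0.039). Dia 6d held 120.2 and 119.6 there, inside the range of Dia 1m. Dia 1m replicate 3 overlapped the Dev libraries at this peak.

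Peak_51243 and peak_56712 lie on unplaced scaffolds and had Dev libraries far below those of Dia 6d. At peak_51243 (NW_015444037.1, 134137 to 134585) the Pre-Dia libraries held 7.7 and 10.5 normalized reads, the Dev libraries 16.4 and 14.8 and the Dia 1m libraries 122, 162 and 51.5. The log2 difference was 3.34 (SE 0.43, limma adjusted p = 6.13e-05), and Dia 6d held 82.5 and 70.4. At peak_56712 (NW_015447614.1, 5184 to 5501) Pre-Dia held 5.5 and 12.01, Dev 7.6 and 7.4, Dia 6d 76.3 and 68.2, and Dia 1m 103, 82.2 and 69.6 normalized reads. The Dia 1m libraries of peak_56712 agreed more closely than those of peak_51243, with SDs of 16.8 and 56.0.

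Peak_56544 (NW_015447307.1, 850 to 1803) was the widest of the 8, at 954 bp. Its Pre-Dia libraries held 34.2 and 12.01 normalized reads and its Dia 1m libraries 142, 238 and 271, a log2 difference of 3.29 (SE 0.39, limma adjusted p = 2.96e-05). Replicate 3, the lowest Dia 1m library at most higher peaks, was the highest at this one. The same order was seen at peak_28547 (NC_029657.1, 45564351 to 45564841), with 23.2 and 4.5 in Pre-Dia and 87.1, 102 and 126 in Dia 1m. Pre-Dia replicate 2 held 3 reads at peak_28547, and the log2 difference of 3.18 (SE 0.48) became 2.11 without that library.

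The remaining pair of large rises lay on placed sequence. Peak_21755 (NC_029655.1, 12243561 to 12244230) held 15.5 and 36.0 normalized reads in Pre-Dia, 78.5 and 59.1 in Dev, 181 and 184 in Dia 6d and 254, 314 and 132 in Dia 1m. Its levels were lowest in Pre-Dia, higher in Dev and highest in diapause, without overlap between these 3 states. Peak_18948 (NC_029654.1, 26015391 to 26015762) held 19.9 and 16.5 in Pre-Dia, 35.7 and 17.4 in Dev, 156 and 98.4 in Dia 6d and 172, 244 and 114 in Dia 1m. Dev was close to Pre-Dia there, and both diapause groups lay above both other groups.

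Among the 8 named peaks with the largest fall, chosen in the same way from 1645, the strongest region was peak_20698 (NC_029654.1, 59828457 to 59828799). It held 339 and 278 normalized reads in Pre-Dia and 17.8, 26.6 and 17.2 in Dia 1m. It fell by 3.86 on the log2 scale (SE 0.34, limma adjusted p = 1.91e-07). Dev kept a high level at this peak (187 and 272), and Dia 6d was in between (51.1 and 63.7). On the same sequence, peak_20590 (NC_029654.1, 58030422 to 58030936) held 190.0 and 199.7 in Pre-Dia and 17.8, 9.3 and 24.4 in Dia 1m, a log2 difference of -3.53 (SE 0.47, limma adjusted p = 9.88e-05). At peak_20590 the Dev libraries were low as well, at 42.8 and 49.7, and Dia 6d was lowest, at 2.7 and 8.9. The order of the stages thus differed between these peaks.

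Peak_28874 (NC_029657.1, 51186918 to 51187475) held 211 and 177 normalized reads in Pre-Dia, 110.1 and 142 in Dev, 49.3 and 50.3 in Dia 6d and 21.0, 34.8 and 9.9 in Dia 1m. Its groups did not overlap in this order of levels, which is no order in time, as Dev embryos developed on without diapause. The peak fell by 3.25 on the log2 scale between Pre-Dia and Dia 1m (SE 0.39, limma adjusted p = 2.98e-05). Peak_3974, 209 bp at 89184918 to 89185126 of NC_029649.1, held 65.2 and 111 in Pre-Dia, 43.4 and 43.6 in Dev, 38.6 and 25.7 in Dia 6d and 15.7, 2.3 and 8.1 in Dia 1m. It showed the same order of levels, with a log2 difference of -3.43 (SE 0.52). Peak_3974 lies near the longest run of closing peaks described later.

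The other 4 large falls were of regions at a lower level. Peak_45252 (NC_029666.1, 10371497 to 10371756) held 54.1 and 84.1 normalized reads in Pre-Dia and 2.1, 8.1 and 3.6 in Dia 1m, that is 2, 7 and 4 reads. Peak_9086 (NC_029651.1, 41748771 to 41749123) held 61.9 and 70.6 in Pre-Dia and 8.4, 2.3 and 15.4 in Dia 1m. Peak_57767 (NW_015448399.1, 33315 to 33564) held 72.9 and 52.6 in Pre-Dia and 13.6, 10.4 and 0.9 in Dia 1m, where the last value is a single read. Peak_7209 (NC_029650.1, 83746723 to 83747365) held 75.1 and 64.6 in Pre-Dia and 10.5, 1.2 and 21.7 in Dia 1m. The lowest Dia 1m library was replicate 1 at the first of these, replicate 2 at peak_9086 and peak_7209, and replicate 3 at peak_57767. All 16 named rises and falls were picked for large differences in the libraries that the alternative fits use again. Their passing in those fits therefore says little about called peaks in general. Without Pre-Dia replicate 1, peak_57767 (limma adjusted p = 0.067) and peak_7209 (0.072) no longer passed, and peak_7209 also missed without Pre-Dia replicate 2 (0.063) and with a constant prior (0.051). The 14 other named rises and falls passed under each of the 17 alternatives tried.

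**Figure D2:**
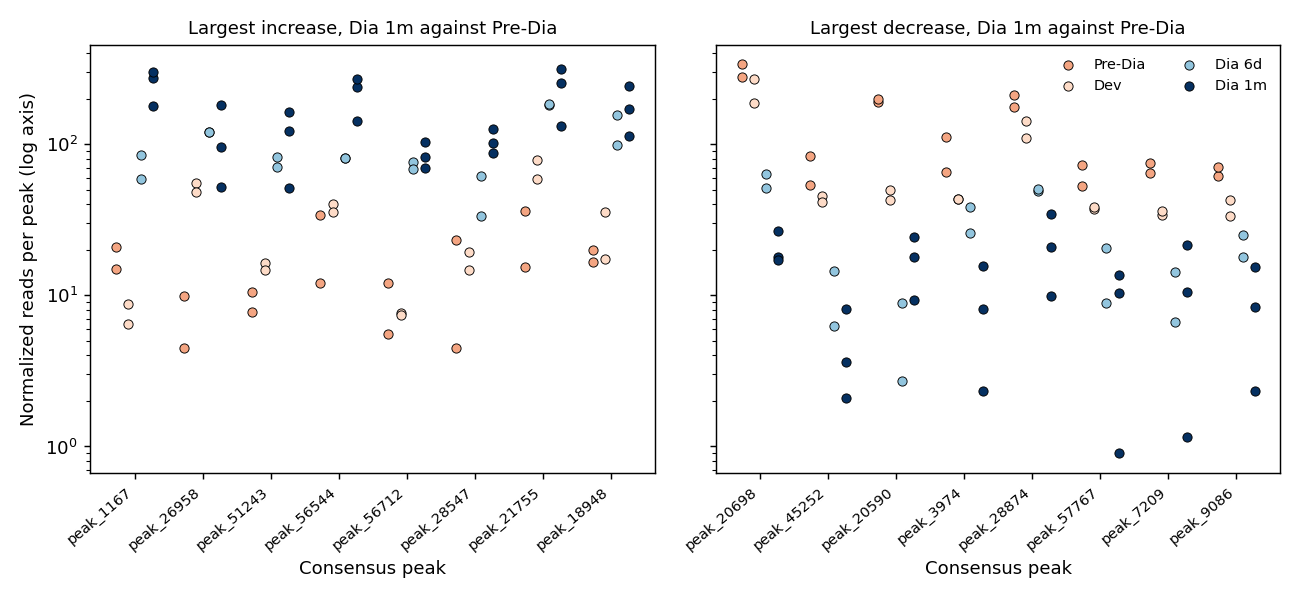
Normalized reads per peak (logarithmic vertical axis) in each of the 9 libraries at the 8 named peaks with the largest rise (left) and the 8 with the largest fall (right), 1 point per library and colour by stage. Dia 1m libraries lie above both Pre-Dia libraries at left and below both at right, as the naming rule required. Dia 6d libraries lie beyond both Pre-Dia libraries in the same direction, and Dev libraries vary from peak to peak.

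The 3 peaks with the largest means over the 5 libraries did not pass the test, and all 3 lie on unplaced scaffolds. Some other strong peaks did pass, though most did not. In the strongest of 5 classes by mean over 9 libraries, described later, 10.7% of peaks passed as higher and 4.69% as lower. Peak_60277 (NW_015449350.1, 1498 to 2888) held 18745 and 24447 normalized reads in Pre-Dia and 27675, 17833 and 43472 in Dia 1m, with a log2 difference of 0.38 (SE 0.57, limma adjusted p = 0.737). Peak_56842 (NW_015447735.1, 4672 to 5438) held 18328 and 22633 in Pre-Dia and 28152, 18472 and 30599 in Dia 1m (log2 difference 0.30, SE 0.54, limma adjusted p = 0.783). Peak_53694 (NW_015444269.1, 81281 to 82531) held 16123 and 20163 in Pre-Dia and 20920, 13424 and 25697 in Dia 1m (0.10, SE 0.53, limma adjusted p = 0.934). The libraries of both groups overlapped at all 3, and replicate 2 was the lowest and replicate 3 the highest of Dia 1m at each. The sign of the difference was not stable at peak_60277, where it was -0.10 after quantile normalization, or at peak_53694.

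The Dia 6d and Dev libraries, which the main contrast compares with nothing, were placed on the same scale at the called peaks. At the 2850 higher peaks, the median log2 distance from the Pre-Dia mean was 1.505, 1.91 and 1.15 in the Dia 1m libraries, 1.33 and 1.34 in Dia 6d, and 0.93 and 0.56 in Dev. At the 2146 lower peaks it was -1.58, -1.52 and -1.43 in Dia 1m, -1.06 and -1.08 in Dia 6d, and -0.46 and -0.30 in Dev. The Dev medians were the nearest to 0. At the higher peaks the Dia 6d libraries lay between Dia 1m replicates 1 and 3, and at the lower peaks they lay between Dev and Dia 1m without overlap of the library medians.

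Expressed as a share of the change from Pre-Dia to Dia 1m, the median higher peak had reached 88.8% in Dia 6d and 49.6% in Dev, and the median lower peak 70.5% and 24.2%. These shares use the same Pre-Dia libraries in every term, and the peaks were picked on a difference from those libraries, so that an error in Pre-Dia enters the shares of both groups. The peaks were picked on the Dia 1m libraries as well, which enlarges the full change and favours smaller shares. These shares are a description and were not tested. The comparison of Dia 1m with Dia 6d takes its difference without the Pre-Dia libraries, which enter its spread only. It called 17 of all peaks (0.0282%) in the same fit, with 4953 at an unadjusted p under 0.05. Among the 2850 higher peaks 0 passed in that comparison by limma (247 above and 13 below Dia 6d at an unadjusted p under 0.05), and among the 2146 lower peaks 7 passed, each lower in Dia 1m than in Dia 6d (11 above and 508 below at an unadjusted p under 0.05). The higher and lower peaks were picked on the Dia 1m libraries too, which favours Dia 1m lying beyond Dia 6d at them. These counts at called peaks are therefore a description. Over all peaks edgeR called 36 and DESeq2 123 in that comparison. Dev against Pre-Dia called 52 of all peaks (0.0862%), of which 46 were higher in Dev, and 8497 reached an unadjusted p under 0.05.

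**Figure D3:**
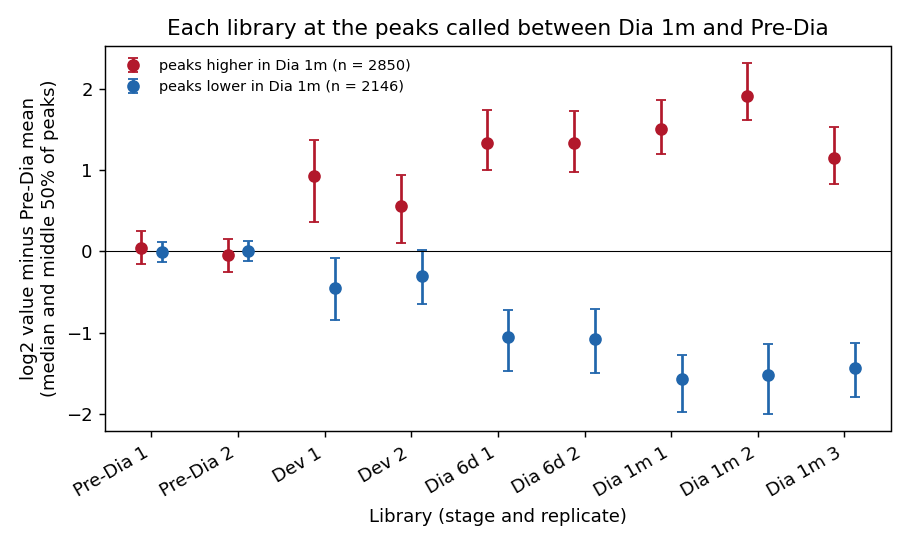
Median (point) and middle 50% of peaks (bar) of the log2 value minus the Pre-Dia mean, per library, at the peaks higher (red) and lower (blue) in Dia 1m than in Pre-Dia. The Dia 1m medians lie at 1.15 to 1.91 and at -1.58 to -1.43, Dia 6d at 1.33 to 1.34 and -1.08 to -1.06, and Dev nearer to 0. The Pre-Dia libraries are near 0 by construction.

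The 17 peaks that limma called between Dia 1m and Dia 6d all fell between 6 days and 1 month, by 1.85 to 2.67 on the log2 scale with a median of -2.24. They were picked out after their values were seen. Peak_38161 (NC_029662.1, 6000736 to 6001178) held 79.5 and 72.1 normalized reads in Pre-Dia, 132 and 123 in Dev, 127 and 82.7 in Dia 6d and 16.8, 22.0 and 23.5 in Dia 1m. It was open in the other 3 groups and low in all 3 Dia 1m libraries. Peak_53700 (NW_015444270.1, 21899 to 22441) had the same pattern, with 76.2 and 54.1 in Pre-Dia, 54.7 and 73.8 in Dia 6d and 17.8, 15.1 and 9.9 in Dia 1m. Other peaks of the 17 rose and fell again: peak_33097 (NC_029659.1, 23314208 to 23314600) held 38.7 and 19.5 in Pre-Dia, 117 and 77.2 in Dev, 105 and 143 in Dia 6d and 27.3, 39.4 and 13.6 in Dia 1m. Against Pre-Dia, 7 of the 17 passed as lower in Dia 1m and 10 did not pass. The count of 17 became 0 without either Dev library, either Dia 6d library or Dia 1m replicate 1, 3 without either Pre-Dia library, 1157 without Dia 1m replicate 2 and 357 without Dia 1m replicate 3. The fall at every called peak did not hold under other fits, in which peaks higher in Dia 1m made up 273 of the 1157, 112 of the 357, 24 of the 123 called by DESeq2 and 1 of the 36 called by edgeR.

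Called peaks were wider than others and had a higher mean over all 9 libraries. The median width was 503 bp for higher, 474 bp for lower and 414 bp for uncalled peaks, and 421 bp over all. Peaks were sorted into 5 classes of equal size by their mean over all 9 libraries. That mean includes the Dia 1m libraries on which peaks were called, so a rise lifts the class of a peak and a fall lowers it. In the Pre-Dia libraries the median higher peak held 30.9 and 30.03 normalized reads, against 33.1 and 34.5 over all peaks. The median lower peak held 74.0 and 76.6 there. The share called higher rose from 0.861% in the weakest class to 10.7% in the strongest, and the share called lower from 0.911% in the weakest to 5.29% in class 4 and 4.69% in the strongest. In the 3 weakest classes lower calls outnumbered higher calls (110 against 104, 311 against 264 and 520 against 398), and in the strongest class higher calls led by 1292 to 566. Within the strongest class higher peaks were narrower than uncalled ones (690 against 779 bp), so that the greater width of higher peaks over all went with their level. A peak with few reads has less chance of passing, and its part in these shares was not tested.

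The assembled sequences differed in the balance of opening and closing. On the 19 NC sequences, the chromosome-sized parts of the assembly, 5.29% of 46951 peaks were higher and 3.63% lower, and on the 3298 shorter NW scaffolds that hold peaks 2.73% of 13408 peaks were higher and 3.28% lower. Higher peaks outnumbered lower ones on 16 of the 19 NC sequences. NC_029667.1 stood at the end of this order, with 87 higher peaks among 939 (9.27%) and 16 lower (1.70%). NC_029660.1 had the largest share of lower peaks, 106 of 2022 (5.24%), with 77 higher (3.81%).

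NC_029667.1 and NC_029660.1 were then followed library by library over all their peaks, as a description, since they were picked for their calls against Pre-Dia. The median log2 distance of its 939 peaks from the Pre-Dia mean was 0.27, 0.43 and 0.11 in Dia 1m, 0.38 and 0.36 in Dia 6d, and 0.40 and 0.17 in Dev. The corresponding medians of the NC sequences other than these 2 were 0.02, 0.09 and -0.05 in Dia 1m, 0.08 and 0.06 in Dia 6d and 0.12 and 0.07 in Dev. All of these distances are from the same 2 Pre-Dia libraries, so that a deviation of Pre-Dia would move them alike. On NC_029660.1 the medians were -0.09, -0.09 and -0.13 in Dia 1m, -0.05 and -0.08 in Dia 6d and 0.04 and 0.01 in Dev.

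**Figure D4:**
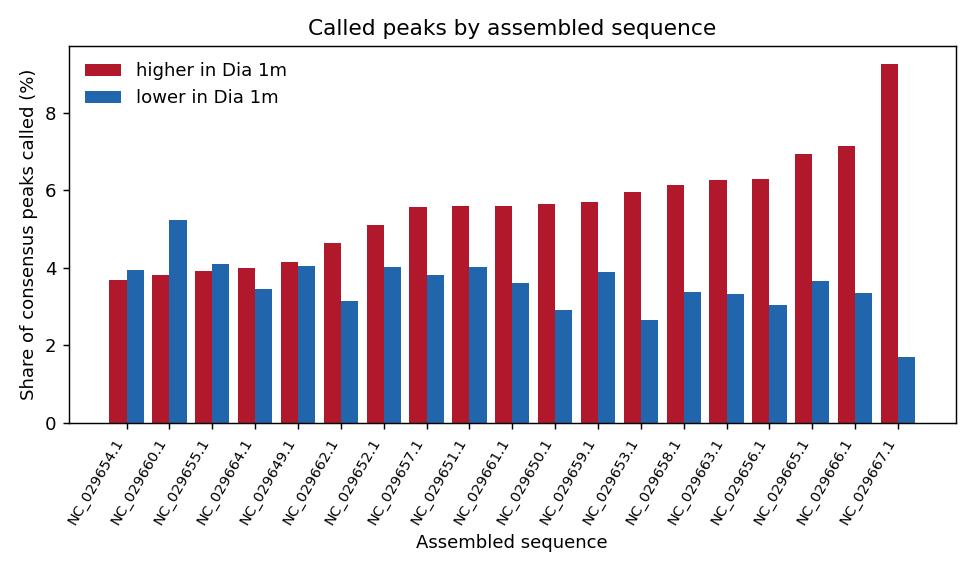
Share of consensus peaks (percent, vertical axis from 0) called higher (red) or lower (blue) in Dia 1m on each of the 19 NC sequences, in the order of the share called higher. The red bar is the taller one on 16 sequences, and NC_029667.1 at the right has 9.27% higher and 1.70% lower.

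Called peaks were compared with their next neighbour. After a higher peak, the next peak on the same sequence was also higher in 18.1% of 2745 cases and lower in 0.692%, against 4.78% and 3.59% after any peak. After a lower peak, the next was lower in 10.5% of 2059 cases and higher in 0.826%. For neighbours within 1000 bp the shares in the same direction were 25.7% (84 of 327) and 22.5% (52 of 231), against 4.79% higher and 2.92% lower after any peak at that distance (7250 pairs), and opposite directions were met 1 time after a higher peak and 0 times after a lower one. Neighbours share the libraries and the local sequence, so these shares are a description.

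Runs were defined as consecutive consensus peaks at most 50 kb apart that all passed in the same direction. Most called peaks had no such neighbour, 2029 of the 2850 higher and 1751 of the 2146 lower ones. Higher peaks formed 348 runs of 2 or more, which held 28.8% of them, and 86 runs had 3 or more members. Lower peaks formed 186 runs of 2 or more with 18.4% of them, and 19 had 3 or more. The longest run of opening peaks had 8 members and the longest of closing peaks 5. With a limit of 10 kb the longest runs had 5 and 4 members.

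The longest opening run spanned 95.6 kb of NC_029652.1, from 46546276 to 46641863, and its log2 differences ranged from 1.22 to 2.88 with a median of 1.67. Its first member, peak_13224, rose most, from 11.05 and 15.0 normalized reads in Pre-Dia to 131, 153 and 51.5 in Dia 1m (log2 difference 2.88, SE 0.41, limma adjusted p = 0.000161). Another member, peak_13226, held 7.7 and 36.0 in Pre-Dia and 97.6, 168 and 89.5 in Dia 1m (2.67, SE 0.47, limma adjusted p = 0.00104). These were regions at a low level before diapause, while the strongest member, peak_13227, was already open with 92.8 and 82.6 in Pre-Dia and reached 268, 311 and 135 in Dia 1m (1.34, SE 0.35, limma adjusted p = 0.0165). The groups did not overlap at any of the 8 members, and replicate 2 was the highest Dia 1m library at each of them. Neither trait sets the run apart. Over all 2850 higher peaks, the groups did not overlap at 98.0% and replicate 2 was the highest at 82.0%.

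Dia 6d had reached the level of Dia 1m at the members of this run. Peak_13224 held 109 and 89.4 normalized reads in Dia 6d, and peak_13227 held 233 and 219. The limma log2 difference between Dia 1m and Dia 6d over the 8 members lay between -0.33 (peak_13230) and 0.19 (peak_13228). Dev libraries were uneven, with 51.6 and 34.9 at peak_13224 and 172 and 94.6 at peak_13227, and Dev replicate 1 was higher than Dev replicate 2 at all members except peak_13225. Apart from the 8 members, the run and 150 kb to either side held 32 peaks. Of these, 9 passed as higher, 0 passed as lower and 27 had a positive difference. Over all peaks 4.72% passed as higher, and the median difference was 0.006. The place was picked for its calls against the same Pre-Dia libraries, so its surroundings are a description.

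The longest closing run spanned 35.3 kb of NC_029649.1, from 89086652 to 89121921. Its strongest member, peak_3960, held 221 and 215 normalized reads in Pre-Dia and 97.6, 153 and 81.3 in Dia 1m (log2 difference -1.02, SE 0.31, limma adjusted p = 0.0413). Peak_3961 fell further, from 104 and 116 to 27.3, 29.0 and 37.1 (-1.80, SE 0.34, limma adjusted p = 0.00209). Peak_3962 was the weakest, with 38.7 and 19.5 against 2.1, 7.0 and 12.7, and had the largest fall of the run (-2.04, SE 0.59, limma adjusted p = 0.0299). The member next to it, peak_3963, held 40.9 and 48.0 in Pre-Dia and 8.4, 9.3 and 14.5 in Dia 1m.

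The members of the closing run differed in their levels in Dia 6d, which is a description, as members were not tested against each other. Peak_3961 was already down in Dia 6d, at 36.8 and 39.1 normalized reads, with Dev still at 114 and 91.3. Peak_3964 held 49.7 and 67.6 in Pre-Dia, 72.6 and 49.7 in Dev, 82.5 and 73.8 in Dia 6d and 11.5, 24.3 and 32.5 in Dia 1m, so that it was low in Dia 1m alone. Its difference between Dia 1m and Dia 6d was -1.84 and did not pass the test (limma adjusted p = 0.109). At peak_3960 as well, Dia 6d (192 and 169.9) was nearer to Pre-Dia than to Dia 1m. This run too was picked for its calls against the same Pre-Dia libraries, so its surroundings are a description. Over all peaks 3.56% passed as lower. Apart from the 5 members, 30 peaks lay within the run and 150 kb to either side. Of these 30 peaks, 7 passed as lower, 0 passed as higher and 28 had a negative difference. Peak_3974, the named peak with a log2 difference of -3.43, lies among them in a further run of 3.

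Single calls within both runs depended on the libraries and the fit, as called peaks did in general. Of all 4996 called peaks, 1906 still passed without Dia 1m replicate 1, 1398 with a constant prior and 1584 with the 5 libraries alone. Of the 13 members of both runs, 11 no longer passed when Pre-Dia replicate 1 was left out, 10 when Pre-Dia replicate 2 was, 9 when Dia 1m replicate 1 was and 9 with a constant prior. As the libraries of all 13 are separated, their direction could not turn when 1 library was left out. With the 5 libraries alone, 7 of the 13 no longer passed. Peak_13224 was the 1 member that passed under all 17 alternatives.

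**Figure D5:**
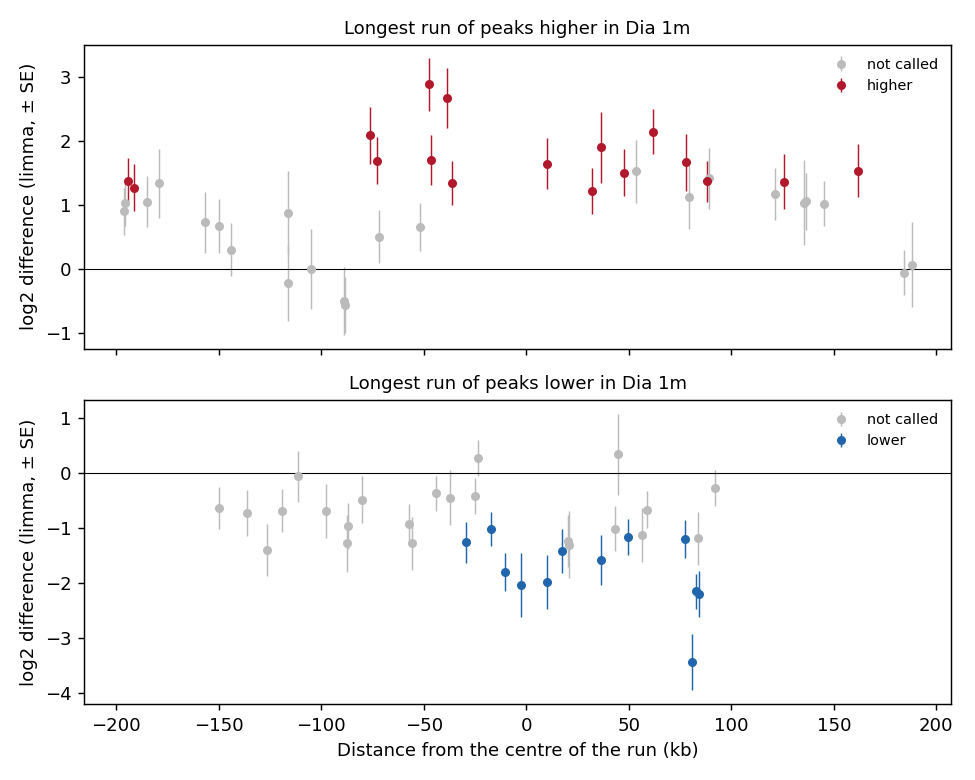
Log2 difference between Dia 1m and Pre-Dia (limma, ± SE) of each consensus peak against its distance in kb from the centre of the longest opening run (top) and the longest closing run (bottom), with 150 kb to either side. Red peaks passed upward, blue peaks downward and grey peaks did not pass. Apart from the run members, 9 of 32 peaks at top are red and none is blue. At bottom, 7 of 30 are blue and none is red. Over all peaks, 4.72% passed upward and 3.56% downward.

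The same called peaks were also counted in windows of 1 Mb along the NC sequences, which adds no independent evidence to the runs. Of 1088 windows with peaks, 40 held 10 or more higher peaks and 12 held 10 or more lower peaks, 376 held both kinds and 91 held no called peak, with a median of 41 peaks per window. Over all NC sequences, 5.29% of peaks were higher and 3.63% lower. The windows named here were picked as extremes after their counts were seen. The window from 46 to 47 Mb of NC_029652.1, which contains the longest opening run, had the most higher peaks, 23 of 67, and 0 lower. It was followed by the window from 26 to 27 Mb of NC_029665.1 with 22 of 47 higher and 0 lower, and by 28 to 29 Mb of NC_029662.1 with 20 of 54 higher and 0 lower. The most lower peaks were in the window from 89 to 90 Mb of NC_029649.1, with 21 of 87 lower and 0 higher, which contains the longest closing run. The window from 8 to 9 Mb of NC_029652.1 had 19 of 94 lower and 0 higher.

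The medians over all peaks of these windows are given per library as a description, since the windows were picked on calls against the same 2 Pre-Dia libraries. In the window at 26 Mb of NC_029665.1, the median log2 distance of all 47 peaks from the Pre-Dia mean was 1.25, 1.81 and 0.67 in Dia 1m, 1.33 and 1.22 in Dia 6d and 0.68 and 0.24 in Dev. Dia 1m replicate 3 was no higher there than Dev replicate 1. In the window at 89 Mb of NC_029649.1, the median of all 87 peaks was -0.77, -1.23 and -0.51 in Dia 1m, -0.65 and -0.64 in Dia 6d and -0.35 and -0.26 in Dev. In the window at 8 Mb of NC_029652.1 the Dia 1m libraries were close to each other, at -0.63, -0.60 and -0.54, with Dia 6d at -0.47 and -0.51 and Dev at -0.24 and -0.12.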

How the data were processed

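The deposited signal was made by the authors with Trim Galore 0.4.1, Bowtie2 2.2.5, Picard 2.22.1, SAMtools 1.5, deepTools 3.2.1 and MACS2 2.1.1.20160309 (submitters' processing notes), and consensus peaks were built with DiffBind. The table is named RPKM, but its signal values per peak are whole reads times 1 factor per library (100% whole within 0.01 reads, lowest value 1 read), so depth was taken from recovered reads. Coordinates are as deposited, counting both ends in the width.

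Groups came from the labels. One limma fit (3.58.1, R 4.3.3) with a trended prior on log2(value + 1) covered all 9 libraries in 4 groups, with two-sided contrasts adjusted by Benjamini-Hochberg over 60359 peaks and a threshold of 0.05. Fold changes on this scale understate changes of weak peaks. The script was tested on simulated data. Alternatives were edgeR 4.0.16 and DESeq2 1.42.0 on recovered reads, quantile normalization, a pseudocount of 5, a mean of at least 20, a constant prior, the 5 libraries alone, a replicate block and leaving out each library.

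Peaks were named by rule: the 8 largest rises and falls among called peaks with separated libraries and a mean of at least 50 in the higher group, the 3 strongest peaks and the longest run in each direction. The comparison, the rule and the lists were chosen with earlier results of these data known. The main fit did not treat the replicate numbers as pairs. Gene names, gene lists, motifs, sequences and gene positions were not analysed here.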

Additional observations from a re-analysis of the deposited data

Results flagged for a closer look

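Accessibility differed between 1 month and 6 days of diapause at 17 peaks by the limma test of that difference, and all 17 were lower at 1 month. This count was not stable. It was 0 without Dia 1m replicate 1, and it also fell without any single library of the other groups, as given above. Other fits also called peaks higher at 1 month: 24 of 123 by DESeq2, 1 of 36 by edgeR, 273 of 1157 without Dia 1m replicate 2 and 112 of 357 without Dia 1m replicate 3. The largest fall was at peak_41877 (NC_029664.1, 3298335 to 3298591), with 57.4 and 72.7 normalized reads in Dia 6d and 5.2, 12.7 and 11.7 in Dia 1m (log2 difference -2.67, limma adjusted p = 0.035). The groups of 2 and 3 libraries were too small for a test of single libraries that stand apart.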

How the results depend on the processing

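The number of called peaks varied with the libraries. The total, higher and lower counts were 4996, 2850 and 2146 as reported, 1585, 979 and 606 with the 5 libraries alone and 1490, 768 and 722 with a constant prior. After quantile normalization 3289 were lower. Leaving out 1 library gave totals from 719 to 12519, higher counts from 522 to 7674 and lower counts from 197 to 4845. edgeR (5143), DESeq2 (5483, with 11703 adjusted p-values not given), a pseudocount of 5 (5288) and the filter (5090 of 47372) gave totals within 1.5 times. Same-numbered libraries of Pre-Dia and Dia 1m did not deviate together (r = -0.05 and -0.003), and the main fit used no pairing. With so few libraries these values cannot show whether same-numbered libraries share a clutch or batch. With the replicate block, which leaves Dia 1m replicate 3 without weight as the one library of its number, the counts were 11604, 7181 and 4423. For Dia 1m against Dia 6d, alternatives chosen after seeing the data gave 36 peaks with edgeR (1 higher), 123 with DESeq2 (24 higher) and 0 to 1157 without 1 library (273 of the 1157 higher), where a lone library was assumed to vary like the other groups. The uncalled peak_60277 turned to -0.10 after quantile normalization, and peak_53694 to -0.11 with the replicate block and to a range of -0.11 to 0.36 without 1 library, below 0 without Pre-Dia replicate 1 or Dia 1m replicate 3. The cause was not tested. A wider promoter window was not run, as peaks were not placed on genes. Depth limits weak peaks: 3.14% to 14.2% of peaks held under 10 reads in the 5 libraries.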
